A study of Mus musculus with 6 samples.

Results

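Lactoperoxidase (Lpo), its relative myeloperoxidase (Mpo) and the NADPH oxidase genes Duox1, Duox2, Duoxa1, Duoxa2, Nox1, Nox4, Cyba and Cybb were followed in mRNA sequencing of mouse epidermis. These 10 genes were taken by symbol from the 41214 Ensembl genes of the count files. Lpo was selected on its difference between the genotypes in these same counts, where its p had been the smallest of all genes. The oxidases were chosen by function, as possible sources of its substrate, with earlier results of these data known. The contrast between the genotypes therefore describes the 10 genes and does not test them. The libraries came from C57BL/6 mice at postnatal day 4, 3 from ARPC4 ko epidermis, marked hom in the titles, and 3 from wt epidermis. Arpc4 encodes a subunit of the Arp2/3 complex, the nucleator of branched actin networks. The sources used here give neither the allele, nor a Cre driver, nor whether each library is 1 animal, so the errors below cover the spread between these libraries only.

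Peroxidases of this family hold a heme group and use hydrogen peroxide to oxidize small anions. Lactoperoxidase is secreted by glandular and mucosal epithelia and turns thiocyanate into antimicrobial hypothiocyanite, and myeloperoxidase is a granule enzyme of neutrophils. The peroxide can come from NADPH oxidases. DUOX1 and DUOX2 release it at the surface of epithelia and leave the endoplasmic reticulum only with their maturation factors DUOXA1 and DUOXA2, whereas NOX1, NOX4 and CYBB (also called NOX2) pair with the membrane subunit CYBA (p22phox).

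Counts assigned to genes ran from 17561294 to 20745246 in ko and from 19532675 to 22659511 in wt libraries. A floor of 3 counts lay at 0.132 to 0.177 CPM (counts scaled to 1000000 of the TMM-adjusted library), for counting error only. The deleted gene is no check here, since Arpc4 stood at 64.4 to 67.5 CPM in ko and at 72.5 to 82.5 CPM in wt and the deleted part is not given. Keratinocyte markers were present in every library, with 85957 to 148256 CPM summed over 7 genes in ko and 80668 to 125233 CPM in wt. Fibroblast markers summed to 161.5 to 720.5 CPM in ko and 52.8 to 156.2 CPM in wt (6 genes, with no overlap of the groups in 4 of 6), and endothelial markers to 11.1 to 21.4 CPM in ko and 3.56 to 4.31 CPM in wt (8 genes, with no overlap in 6 of the 6 tested). In each of these genes without overlap the ko libraries lay above, as in 11.3% of all genes tested. The part of fibroblasts and endothelial cells in the results below was not tested. Replicates 1 and 2 of each group carry a date in their titles and replicate 3 does not. In such bulk samples fewer cells of a type and less RNA per cell cannot be told apart.

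The start regions of the 4 genes that lay higher together in ko are shown first, because Lpo and its possible peroxide sources are compared through them. The windows are those of RefSeq on GRCm38.p6, 250 bases before to 50 after the annotated start, read 5′ to 3′ on the strand of the gene. They are chr11:87826065-87826364 (minus strand) for Lpo, chr2:122315422-122315721 (plus) for Duox1, chr2:122313681-122313980 (minus) for Duoxa1 and chr8:122432891-122433190 (minus) for Cyba. Capitals mark letters that match the motifs named below.
Lpo: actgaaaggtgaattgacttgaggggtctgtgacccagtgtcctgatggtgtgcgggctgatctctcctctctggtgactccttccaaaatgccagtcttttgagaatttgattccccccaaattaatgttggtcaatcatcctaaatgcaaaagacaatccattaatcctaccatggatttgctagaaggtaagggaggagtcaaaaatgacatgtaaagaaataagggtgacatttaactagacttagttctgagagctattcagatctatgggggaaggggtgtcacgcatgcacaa
Duox1: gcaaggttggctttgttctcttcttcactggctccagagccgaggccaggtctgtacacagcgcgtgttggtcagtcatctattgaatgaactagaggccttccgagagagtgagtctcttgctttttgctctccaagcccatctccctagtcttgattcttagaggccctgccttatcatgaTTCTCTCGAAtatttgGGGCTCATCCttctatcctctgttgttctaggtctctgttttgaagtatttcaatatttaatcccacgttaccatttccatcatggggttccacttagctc
Duoxa1: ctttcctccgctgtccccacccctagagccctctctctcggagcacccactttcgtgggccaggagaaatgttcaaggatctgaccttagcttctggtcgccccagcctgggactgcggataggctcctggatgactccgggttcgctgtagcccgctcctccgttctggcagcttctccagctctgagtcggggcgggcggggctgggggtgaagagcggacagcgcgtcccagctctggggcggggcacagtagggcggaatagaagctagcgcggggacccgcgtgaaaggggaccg
Cyba: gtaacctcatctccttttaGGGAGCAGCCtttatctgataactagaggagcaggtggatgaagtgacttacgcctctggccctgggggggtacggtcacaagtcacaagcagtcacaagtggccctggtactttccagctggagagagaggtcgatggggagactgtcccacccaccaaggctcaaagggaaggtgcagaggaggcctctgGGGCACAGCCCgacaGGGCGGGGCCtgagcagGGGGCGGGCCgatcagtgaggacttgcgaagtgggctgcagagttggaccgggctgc

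The series title names the transcription factor Nrf2, and the letters TGACNNNGC, the core of its antioxidant response element, were searched on both strands together with TGANTCA (AP-1), TTCNNNGAA (STAT), a STAT6 pattern (TTC and GAA with 4 bases of any kind between them), an NF-kB pattern (GGG and CC with 5 between them) and TATAAA. The first 2 patterns can overlap in their opening letters, and neighbouring NF-kB matches can overlap each other. Windows of all 10 genes were found. The antioxidant core was in none of the 10 windows, against 12.4% of all 32851 windows. The Lpo and Duoxa1 windows held none of the 6 patterns. The Duox1 window held a STAT6 pattern (in 6.95% of all windows) and an NF-kB pattern (in 50.8%), and the Cyba window held NF-kB patterns only. Windows of genes that did not separate the groups held such patterns too. The Mpo window held STAT6 and NF-kB patterns, Nox1 NF-kB, Nox4 STAT and NF-kB, Cybb AP-1 and NF-kB, and Duoxa2 AP-1 and TATAAA. A pattern of letters is not a binding site, and absence from these windows says nothing of the factor. For Lpo the GENCODE annotation also places a start 2175 bases upstream of the RefSeq one, outside the printed window.

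Lpo (ENSMUSG00000009356, chromosome 11, 87806428 to 87828289, minus strand) had 1013, 1188 and 867 reads in ko replicates 1 to 3, against 45, 72 and 69 reads in wt replicates 1 to 3. These were 50.3, 70.2 and 45.4 CPM in ko and 1.98, 3.83 and 3.13 CPM in wt. The groups were far apart, and the lowest ko library, replicate 3, was well above the highest wt library, replicate 2. The means were 55.3 ± 13.1 CPM in ko and 2.98 ± 0.933 CPM in wt (SD, n = 3 each), a fitted difference of 4.22 log2 (SE 0.29, 95% interval 3.52 to 4.92), or 18.6-fold. Within the dated libraries the log2 difference of the means was 4.38 and between the undated pair it was 3.86. No 51-base window of the annotated Lpo transcripts, the length of the reads, occurred in a transcript of another gene, and no exon overlapped another gene. Among annotated transcripts it therefore shares no read with Mpo.

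Mpo (chromosome 11, 87793581 to 87804413, plus strand) lies beside Lpo in the genome. It had 0 reads in each of the 3 ko libraries and 0, 0 and 1 read in wt replicates 1 to 3. Both groups were thus at or under the floor and no fold is given. Other neutrophil genes were low as well. Ly6g and Mmp8 had 0 reads in all 6 libraries, and the granule genes Elane and Camp had at most 1 read in any library. Ltf of the same list had 6, 1 and 20 reads in ko and 3, 9 and 6 reads in wt. Prtn3 had 4, 4 and 0 reads in ko and 4, 4 and 5 reads in wt. Ngp had 3, 2 and 4 reads in ko and 1, 2 and 3 reads in wt, and Retnlg 1, 1 and 4 against 1, 0 and 0. Over all 10 neutrophil markers the summed level was 2.13 to 9.90 CPM in ko and 1.80 to 6.39 CPM in wt, most of it Mmp9, which other cells also make. The receptor Csf3r had 10, 4 and 21 reads in ko and 3, 0 and 3 reads in wt. Eosinophil markers summed to 3.92 to 5.85 CPM in ko and 1.58 to 2.98 CPM in wt (8 genes), most of it Ear6. Ear6 had 3.38, 4.67 and 2.67 CPM in ko and 1.50, 2.82 and 2.22 CPM in wt, with overlapping groups. Ccr3 had 2, 15 and 30 reads in ko and 0 in each wt library, and Ear2 had 0, 1 and 15 reads in ko and 0 in each wt library. Siglecf did not follow, with 6, 1 and 0 reads in ko and 2, 2 and 5 reads in wt. Prg2 and Prg3 had at most 1 read in any library. Mast cell markers summed to 3.04 to 8.33 CPM in ko and 0.264 to 1.36 CPM in wt (6 genes). Hdc, named after its values were seen, was the only one of 2 tested that edgeR called higher, against 0.219% of all genes. The eosinophil peroxidase Epx was at 0 in both groups. Pxdn, a peroxidase of basement membranes, stood at 15.6 ± 4.71 CPM in ko and 9.05 ± 4.68 CPM in wt (SD, n = 3; edgeR adjusted p = 0.507).

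Markers of secretory glands, where lactoperoxidase is usually described, were scarce. Of 12 listed genes 9 had at most 3 reads in any library, and of these the milk and airway genes Wap, Bpifa1 and Scgb3a1 had 0. The list summed to 0.945 to 1.44 CPM in ko and to 2.68 to 4.46 CPM in wt, lower in every ko library. Most of that sum was Scgb1a1, a secretoglobin of airway cells, with 22, 12 and 18 reads in ko and 55, 80 and 65 reads in wt.

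**Figure D1:**
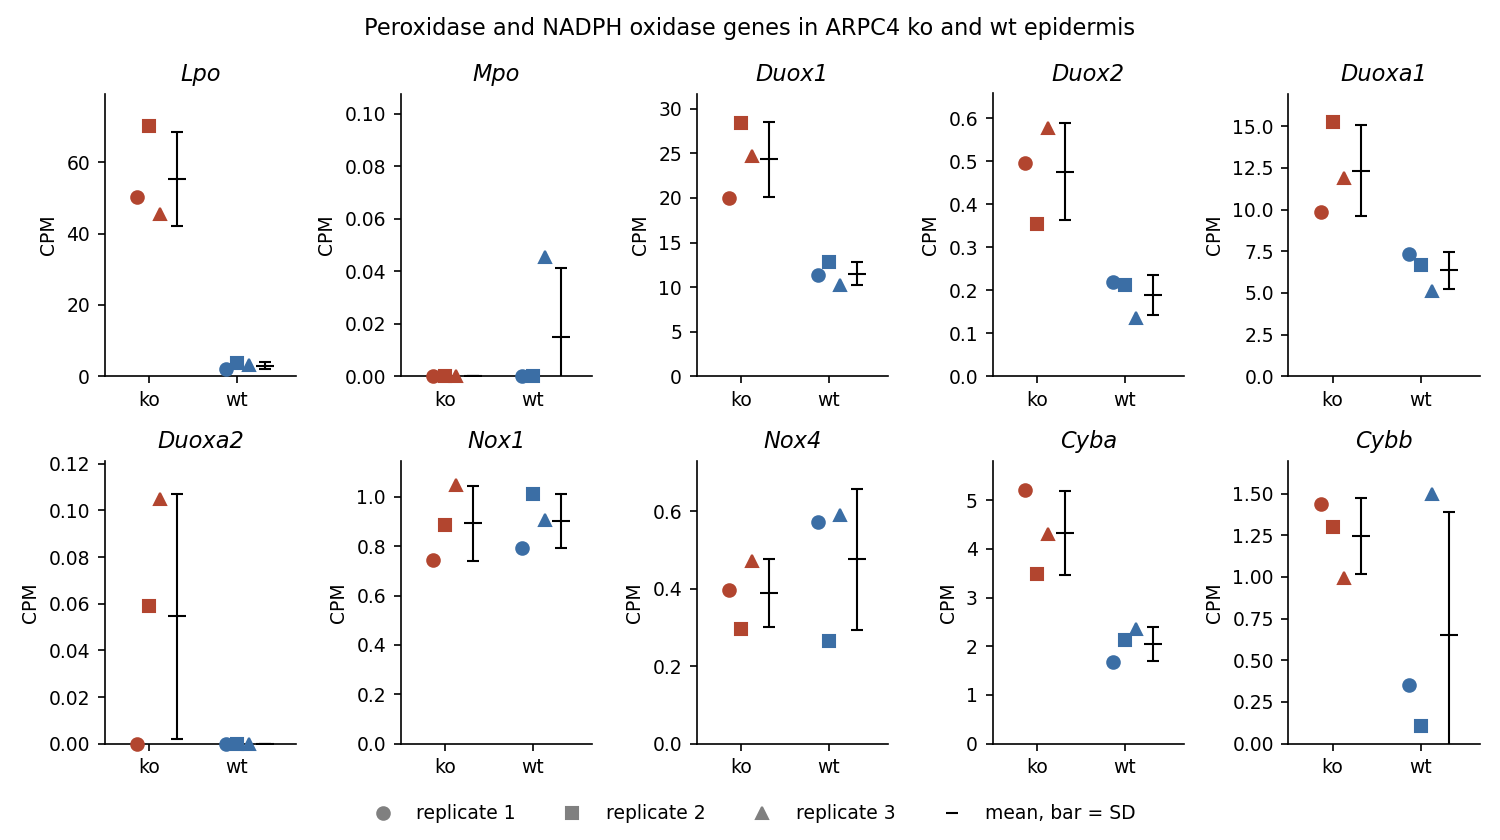
Level of the 10 genes (CPM, linear axes from 0, a scale for each gene) in the 3 ko and 3 wt libraries, with the mean and SD beside the points; SD bars that would pass below 0 are cut at 0. Lpo, Duox1, Duox2, Duoxa1 and Cyba have all ko libraries above all wt libraries, and Mpo, Duoxa2, Nox1, Nox4 and Cybb overlap.

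Duox1 was the dual oxidase with the higher level, and it lay higher in ko together with its maturation factor. Duox1 (chromosome 2, 122315672 to 122347972, plus strand) had 20.0, 28.4 and 24.7 CPM in ko and 11.3, 12.9 and 10.3 CPM in wt. Each ko library lay above each wt library. The means were 24.3 ± 4.21 CPM in ko and 11.5 ± 1.30 CPM in wt, a difference of 1.08 log2 (SE 0.17, 95% interval 0.67 to 1.50). The difference was 1.0 log2 in the dated and 1.26 in the undated libraries. Its maturation factor Duoxa1 (chromosome 2, 122302191 to 122313730, minus strand) had 9.83, 15.2 and 11.9 CPM in ko, against 7.30, 6.64 and 5.12 CPM in wt. The groups did not overlap here either, with a difference of 0.95 log2 (SE 0.23, 95% interval 0.40 to 1.50). The dated libraries differed by 0.85 and the undated by 1.22 log2. Duox1 and Duoxa1 start 1942 bases apart and run away from each other. By CPM the order of the libraries was the same for both genes in ko, with replicate 2 highest and replicate 1 lowest. In wt the highest library by CPM was replicate 2 for Duox1 and replicate 1 for Duoxa1. Their ratio per length (TPM, scaled like CPM after division by length) was 1.40 to 1.57 in ko and 1.17 to 1.52 in wt, so the ratio overlapped between the groups. By TPM the highest ko library was replicate 3 for Duox1 and replicate 2 for Duoxa1, and in wt replicate 1 was highest for both. The order thus depends on the scaling.

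The other pair was close to the floor. Duox2 (chromosome 2, 122279247 to 122298449, minus strand), the dual oxidase best known from thyroid and gut, had 10, 6 and 11 reads in ko and 5, 4 and 3 reads in wt. The ko libraries were all above the wt libraries, at 0.355 to 0.576 CPM in ko and 0.136 to 0.220 CPM in wt, but Duox2 did not pass the filter on low counts. Duoxa2, which starts 451 bases from Duox2 in GENCODE, had 0, 1 and 2 reads in ko and 0 reads in each wt library, at or under the floor in both. Duox1 and Duox2 shared 406 of their 51-base windows, 7.78% of those of Duox1 and 5.91% of those of Duox2, and reads from these places were not assigned. Duoxa1 and Duoxa2 overlap by 682 exon bases on opposite strands, 42.8% of the exon length of Duoxa2, and whether the counting used strand is not stated.

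Cyba (chromosome 8, 122424776 to 122432930, minus strand), the membrane partner of NOX1, NOX4 and CYBB, had 5.21, 3.49 and 4.30 CPM in ko and 1.67, 2.13 and 2.36 CPM in wt. The lowest ko library was above the highest wt library. The means were 4.33 ± 0.865 CPM in ko and 2.05 ± 0.348 CPM in wt, a difference of 1.08 log2 (SE 0.26, 95% interval 0.46 to 1.70). Cyba lay higher in the dated libraries by 1.20 and in the undated ones by 0.87 log2. DUOX enzymes are not known to need this subunit.

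The catalytic partners of Cyba did not separate the groups. Nox1 (chromosome X) had 0.745, 0.886 and 1.05 CPM in ko and 0.792, 1.01 and 0.906 CPM in wt, with overlapping groups. Its difference was -0.01 log2 (95% interval -0.70 to 0.68), or 0.616-fold to 1.60-fold. Nox4 (chromosome 7), which is known to release mainly hydrogen peroxide, had 0.397, 0.295 and 0.472 CPM in ko and 0.572, 0.266 and 0.589 CPM in wt. The difference was -0.30 log2 (95% interval -1.33 to 0.72, or 0.397-fold to 1.65-fold) on 5 to 13 reads a library, and a smaller change was not detectable at this depth. Nox1 shares 12.1% of its exon bases with Cstf2 on the other strand.

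Cybb (chromosome X, 9435252 to 9487771, minus strand), the oxidase of phagocytes, had 1.44, 1.30 and 0.996 CPM in ko and 0.352, 0.106 and 1.49 CPM in wt. The undated wt replicate 3 was the highest of all 6 libraries and the dated wt replicates were the lowest. The difference over all libraries was 0.89 log2 (SE 0.71, 95% interval -0.79 to 2.58). Without wt replicate 3 it was 2.34 log2, the dated libraries alone differed by 2.58 and the undated pair by -0.59. The dated wt replicates 1 and 2 held only 8 and 2 reads, and wt replicate 2 lay under its floor of 0.159 CPM. The ko libraries had 29, 22 and 19 reads and wt replicate 3 had 33. Macrophage and Langerhans cell markers summed to 135.5, 101.0 and 112.5 CPM in ko and to 66.9, 69.3 and 115.1 CPM in wt replicates 1 to 3, with replicate 3 highest of wt but below ko replicate 1. Csf1r and Cd207 had the highest mean levels of the list. Cd68 differed from the sum, with 15.4, 18.7 and 8.38 CPM in ko and 8.18, 11.3 and 6.52 CPM in wt, lowest in wt replicate 3. Of the 9 tested markers edgeR called 0, against 0.219% of all genes. The groups overlapped in all 9, while 11.3% of all genes had every ko library above and 8.03% every one below. Xist was at 542.4 and 507.2 CPM in ko replicates 1 and 3 and at 578.2 CPM in wt replicate 3, and at most 0.425 CPM in the others, so sexes were mixed within both groups. The part of myeloid cells, sex or collection in the Cybb values was not tested.

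**Figure D2:**
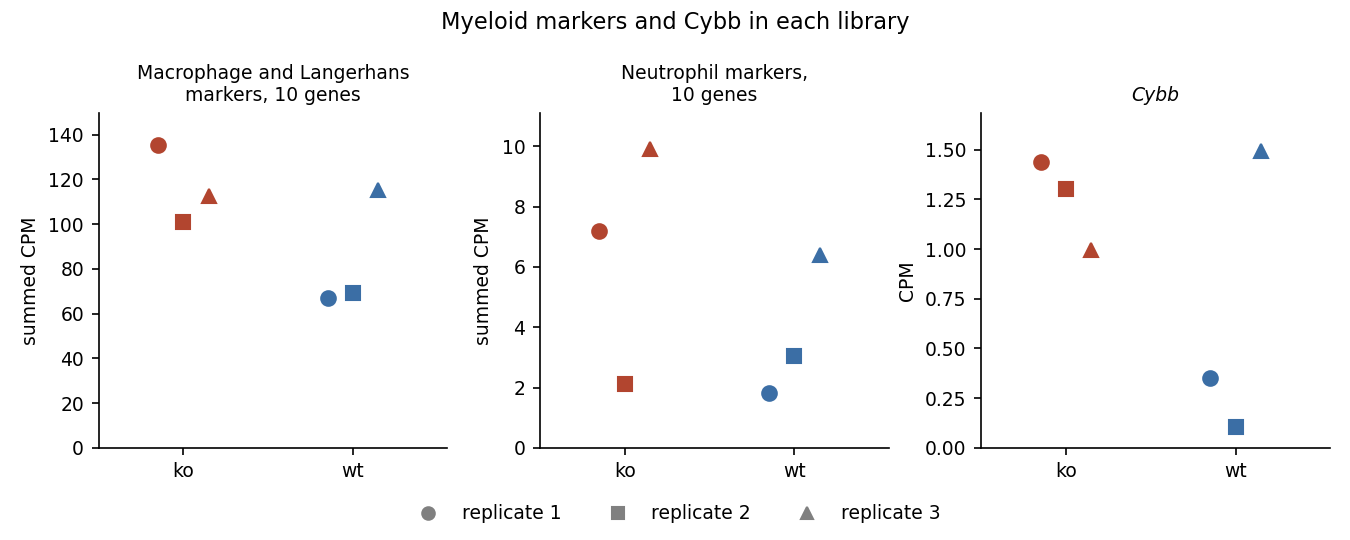
Summed CPM of 10 macrophage and Langerhans cell markers and of 10 neutrophil markers, and CPM of Cybb, in each ko and wt library (linear axes from 0, a symbol for each replicate). In the macrophage panel wt replicate 3 lies among the ko libraries, for Cybb it is higher than all of them, and the neutrophil sums overlap and stay under 10 CPM.

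Counted over the 10 genes, 7 passed the filter on low counts and 4 of these 7 (Lpo, Duox1, Duoxa1 and Cyba) had ko libraries that were all above the wt ones, against 11.3% of the 13704 genes tested. None had them all below, against 8.03%. By edgeR's quasi-likelihood test 1 of 7, Lpo, was called at an adjusted p under 0.05, against 0.219% of all genes. Without ko replicate 2 or without any of wt replicates 1 to 3 it was 0 of 7, when edgeR called 0 of all genes and DESeq2 called 238 to 806, with 1229 to 2350 under an unadjusted 0.05 in edgeR. DESeq2 on all libraries called 4 of the 10 as higher (Lpo, Duox1, Duoxa1 and Cyba) against 1.93% of all genes. Over the 6 DESeq2 fits that each left out 1 library, Lpo and Duox1 were called in 6, Duoxa1 in 1 (without ko replicate 1), Cyba in 0 and Cybb in 1 (without wt replicate 3). With collection added to the fit edgeR called 3 of 7 (Lpo, Duox1 and Duoxa1) against 3.2%. With the replicate number as a block 2 of 7 (Lpo and Duox1) were called. By limma-voom it was 0 of 7, when 0 of all genes were called. Since Lpo was selected on this contrast and the oxidases were chosen with earlier results of these data known, nothing is read from these shares. The 6 tested oxidase genes had log2 differences between -0.30 and 1.08, beside a median of 0.02 over all genes tested. Their intervals all lay below that of Lpo, but Lpo was selected on this contrast, so nothing is read from that gap either.

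**Figure D3:**
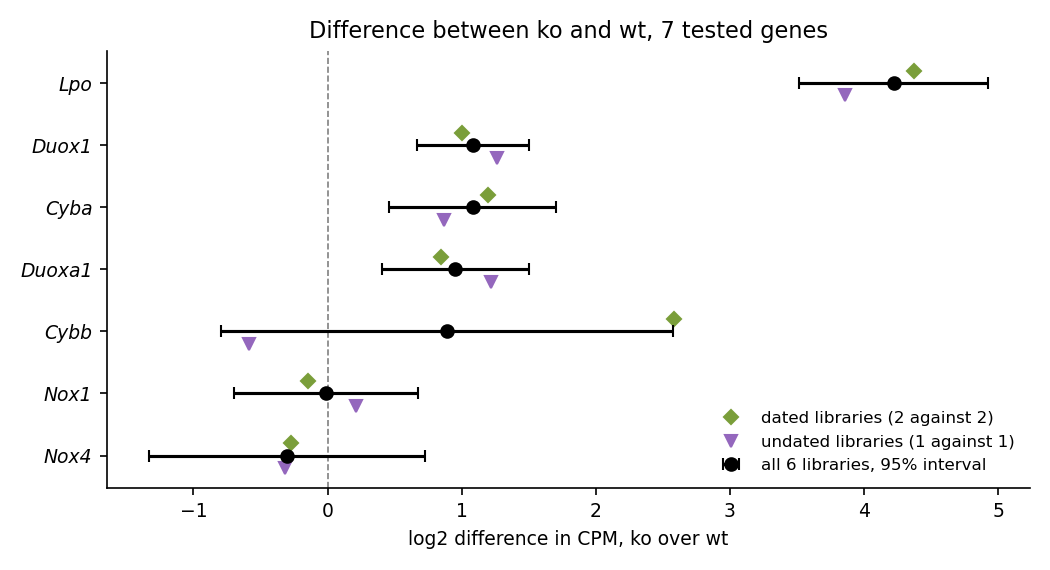
Log2 difference of ko over wt for the 7 genes that passed the filter, as the fitted value with its 95% interval over all 6 libraries (black), and as the log2 ratio of mean CPM within the dated and the undated libraries. Lpo lies at 4.22, Duox1, Cyba and Duoxa1 lie near 1 with both collections on the same side, and Cybb differs in sign between the collections.

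Levels of different genes were compared per length, as TPM over the union of exons. In ko the order was Lpo (51.3 ± 7.50 TPM), Duox1 (13.6 ± 2.15), Cyba (12.4 ± 3.00), Duoxa1 (9.07 ± 1.59), Nox1 (0.801 ± 0.196), Cybb (0.627 ± 0.0900), Duox2 (0.210 ± 0.0677), Nox4 (0.137 ± 0.0433), Duoxa2 (0.104 ± 0.107) and Mpo at 0. The libraries of Lpo and Duox1, of Duoxa1 and Nox1, and of Cybb and Duox2 did not overlap, and every other pair of neighbours down to Duoxa2 did. In wt the order was Duox1 (6.57 ± 0.0402 TPM), Cyba (6.02 ± 1.40), Duoxa1 (4.82 ± 0.733), Lpo (2.85 ± 0.787), Nox1 (0.825 ± 0.0909), Cybb (0.367 ± 0.436), Nox4 (0.175 ± 0.0799), Duox2 (0.0839 ± 0.0164), Mpo (0.0148 ± 0.0256) and Duoxa2 at 0. There the libraries of Duoxa1 and Lpo and of Lpo and Nox1 did not overlap, nor did those of Duox2 and Mpo. Lpo thus ranked 1 of 10 in ko and 4 of 10 in wt. The TPM of Lpo was 4.23, 4.16 and 3.09 times that of Duox1 in ko replicates 1 to 3, against 0.294, 0.50 and 0.511 times in wt. Duox1 had 51.7 to 102.8 times the TPM of Duox2 in ko and 66.1 to 97.3 times in wt.

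**Figure D4:**
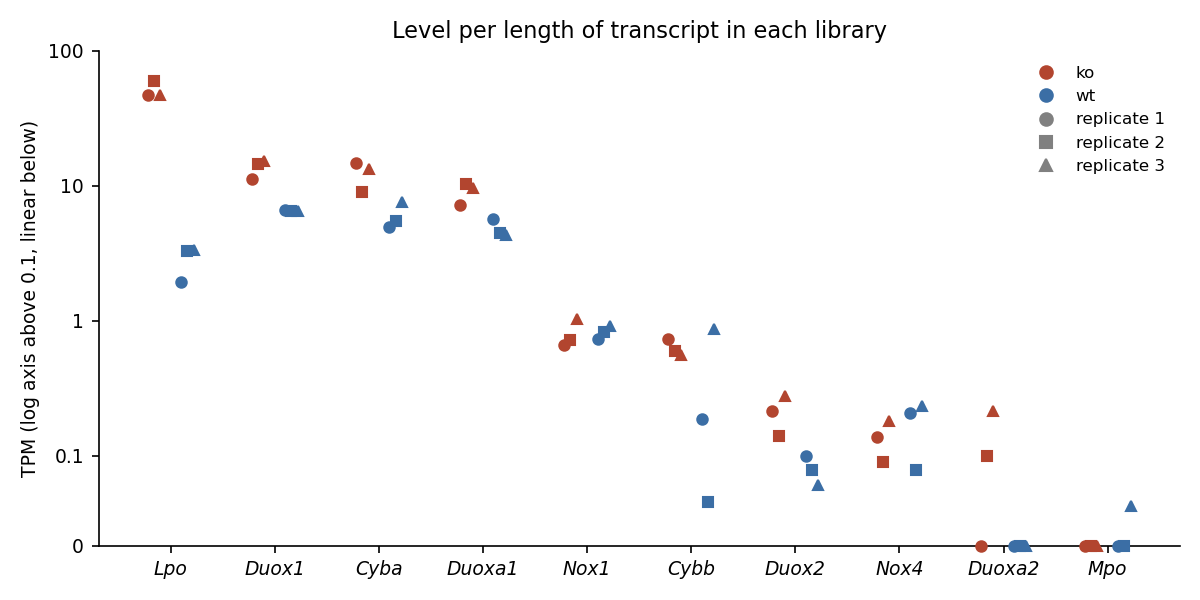
Level per length (TPM, log axis above 0.1 and linear below) of the 10 genes in each ko and wt library, in the order of the ko means. Lpo is highest in ko, while in wt it lies below Duox1, Cyba and Duoxa1, and Duox2, Nox4, Duoxa2 and Mpo stay under 0.3 TPM in every library.

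The 8 genes with at least 5 CPM whose pattern over the 6 libraries was nearest to that of Lpo were found by the root mean square difference of log2 CPM after centring each gene. They were Sprr2d (0.45 log2), Sprr2b (0.53), Sprr2e (0.54), Lce3d (0.60), Gm5416 (0.60), S100a9 (0.62), Krt16 (0.62) and Serpinb3c (0.63). Sprr and Lce genes encode cornified envelope proteins, S100a9 an alarmin and Krt16 a keratin of wounded epidermis. Any gene with a large difference between the groups is near Lpo by this measure. Several of the 8 belong to families of near-identical genes, whose multiply aligned reads went uncounted. Duox1 lay at 1.59 log2 from Lpo, with 132 of 9942 genes nearer, Cyba at 1.62 and Duoxa1 at 1.67. The order of the ko libraries by CPM differed as well, with replicate 3 lowest for Lpo and replicate 1 lowest for Duox1, Duoxa1 and Sprr2d. By TPM Lpo was nearly level in ko replicates 1 and 3, at 47.1 and 46.9.

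The genes around these enzymes were read from lists of function. The lists were written with earlier results of these data known, so calls and p-values below describe these genes only. Of the 65 that passed the filter on low counts, named tested below, edgeR called 0, against 0.219% of all genes. Before adjustment, 12 were higher (7.98% of all genes) and 5 lower (5.25% of all genes) at p under 0.05, while DESeq2 called 4 higher (1.93% of all genes) and 1 lower (0.977%) and limma-voom 0. The cytosolic partners of the oxidases gave 0 of 10 tested at an unadjusted p under 0.05, with a median of 0.08 log2. Of all genes 7.98% were higher and 5.25% lower at that threshold. Ncf4, a phagocyte subunit, stood at 4.18 ± 0.726 CPM in ko and 2.82 ± 0.750 CPM in wt (SD, n = 3; 0.57 log2, edgeR adjusted p = 0.452). The GTPase Rac1 stood at 258.4 ± 36.1 CPM in ko and 210.0 ± 29.4 CPM in wt (0.30 log2, edgeR adjusted p = 0.513), and the scaffold Sh3pxd2a at 250.8 ± 27.8 CPM in ko and 305.4 ± 58.2 CPM in wt (-0.28 log2, edgeR adjusted p = 0.588). Noxo1 and Noxa1, the organizer and activator of NOX1, were under 1 CPM in both groups.

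Other peroxide-forming enzymes held the largest differences of these lists. Xdh, the xanthine oxidoreductase, had 101.7, 130.0 and 171.4 CPM in ko and 55.6, 49.4 and 66.5 CPM in wt. Its groups did not overlap, with 1.23 log2 (SE 0.22, edgeR adjusted p = 0.0852). The polyamine oxidase Smox had 156.9, 176.6 and 151.8 CPM in ko and 96.7, 101.7 and 91.8 CPM in wt, again without overlap (0.74 log2, SE 0.12, edgeR adjusted p = 0.0688). The monoamine oxidase Maob had 11.0, 19.3 and 20.6 CPM in ko and 5.15, 4.15 and 7.02 CPM in wt (1.64 log2, SE 0.31, edgeR adjusted p = 0.0946). None of these 3 passed, although DESeq2 and the fit with collection added called all 3 as higher. The fit with collection added also called Acox2, Acox3 and Sod3 of the same list as lower. Over the 20 tested genes of this list the median was 0.05 log2. Before adjustment 7 genes were higher and 2 lower (edgeR p under 0.05), against 7.98% and 5.25% of all genes. Lox, Loxl1 and Loxl2, lysyl oxidases of the matrix chosen here after their values were seen, were among the 7 (3.00, 1.94 and 1.64 log2, edgeR adjusted p = 0.212, 0.276 and 0.291), and DESeq2 called Lox. Their differences were 4.33, 2.73 and 2.56 log2 in the dated libraries but -0.10, -0.30 and 0.11 in the undated pair, and the groups of Lox and Loxl1 overlapped. Fibroblast markers lay higher in the same ko libraries, as given above, and their part was not tested.

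Enzymes that remove peroxide went both ways, with a median of 0.03 log2 over 18 tested genes. Catalase (Cat) had 415.6, 290.3 and 151.6 CPM in ko and 616.2, 777.7 and 482.3 CPM in wt. Every ko library was below every wt library (-1.13 log2, SE 0.37, edgeR adjusted p = 0.269), and it was called lower once collection was in the fit. Sulfiredoxin (Srxn1), which repairs peroxiredoxins, stood at 64.8 ± 16.4 CPM in ko and 38.0 ± 5.21 CPM in wt (0.77 log2, edgeR adjusted p = 0.184). Gpx7, of the glutathione peroxidase family, stood at 0.884 ± 0.207 CPM in ko and 0.375 ± 0.0699 CPM in wt (1.21 log2, edgeR adjusted p = 0.206).

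Genes that carry or form the anion substrates were 5 of 6 above the filter, with 0 called (0.219% of all genes) and a median of -0.34 log2. Slc26a4 (pendrin) did not pass it. Ano1, a chloride channel that also passes thiocyanate, stood at 108.9 ± 8.54 CPM in ko and 89.3 ± 4.17 CPM in wt, every ko library above (0.29 log2, edgeR adjusted p = 0.337). The sulfurtransferase Mpst was at 18.3 ± 0.617 CPM in ko and 23.3 ± 2.09 CPM in wt, every ko library below (-0.34 log2, edgeR adjusted p = 0.299). The other sulfurtransferase, Tst, was at 5.66 ± 2.73 CPM in ko and 6.87 ± 2.42 CPM in wt, the iodide symporter Slc5a5 at 4.93 ± 2.18 CPM in ko and 8.63 ± 5.12 CPM in wt, and the chloride channel Cftr at 1.49 ± 0.641 CPM in ko and 2.37 ± 0.881 CPM in wt, all with overlapping groups and adjusted p between 0.616 and 0.856 by edgeR.

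Of 11 tested genes of heme synthesis, export and breakdown 0 were called, against 0.219% of all genes, and the median was -0.18 log2. The early enzyme Alad was lower in each ko library, with 13.1, 8.69 and 20.4 CPM in ko and 31.6, 26.9 and 41.6 CPM in wt (-1.24 log2, SE 0.32, edgeR adjusted p = 0.17), and it was called lower by DESeq2 and once collection was in the fit. The later enzyme Cpox was higher in each, with 60.9, 71.0 and 103.5 CPM in ko and 49.5, 45.8 and 43.7 CPM in wt (0.76 log2, SE 0.20, edgeR adjusted p = 0.182). Fech, which inserts the iron, stood at 40.8 ± 5.15 CPM in ko and 46.3 ± 0.535 CPM in wt (-0.18 log2, edgeR adjusted p = 0.61).

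**Figure D5:**
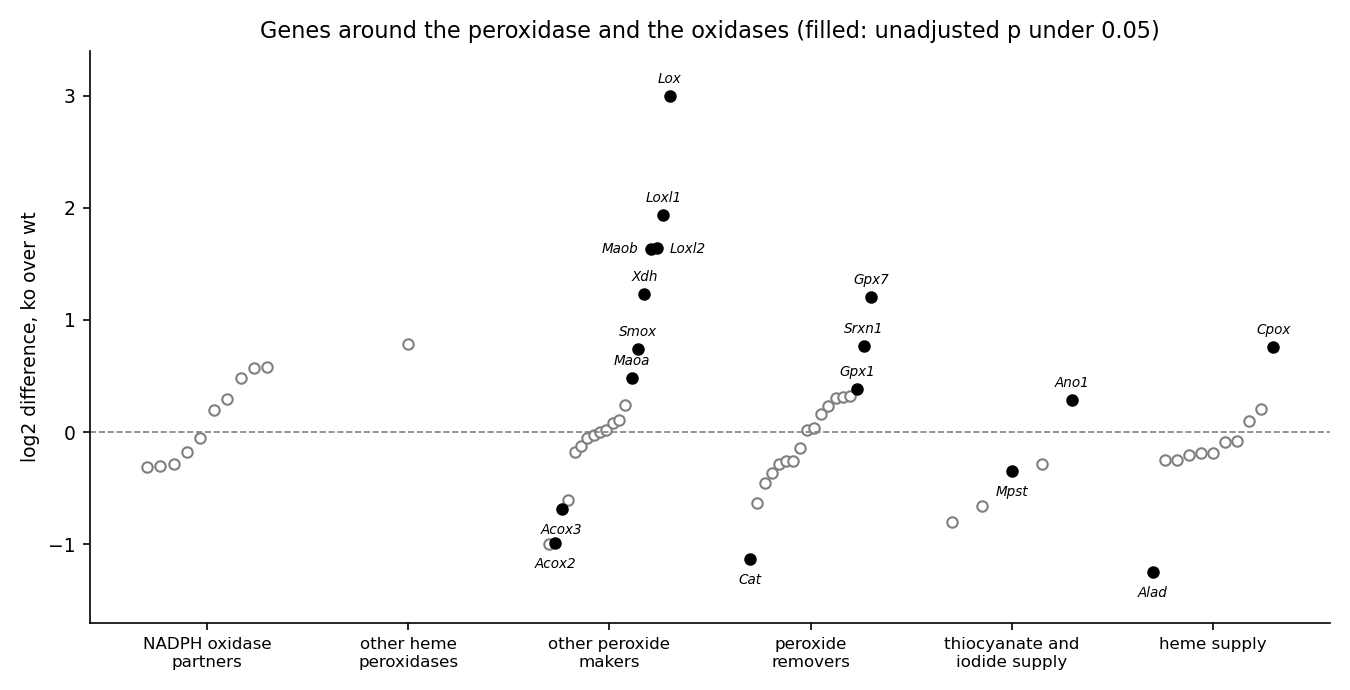
Log2 difference of ko over wt (edgeR) for the 65 tested genes of 6 functional lists, a circle for each gene, filled and named where the unadjusted p was under 0.05. No gene passed after adjustment over all genes, and the filled circles lie on both sides of 0 in 4 of the 6 lists.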

How the data were processed

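Per the submitters' processing notes, TopHat2 2.0.12, Bowtie 1.1 and HTSeq were used with the mm10 build. Libraries were stranded mRNA libraries read single-end over 51 bases, per the labels' protocols. The sources used here give no settings, no strand option for the counting and no annotation release. The deposited values are raw counts of reads per gene. Reads with more than 1 alignment (32.4 to 40.9% of those listed), ambiguous reads (0.38 to 0.499%) and reads outside genes (0.341 to 0.377%) were left out of library sizes and tests. Symbols were found for 40254 of 41214 genes. Positions and exon lengths (40340 genes) are from GENCODE M21 on GRCm38, the assembly of mm10.

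Replicate pairs differed by more than sampling noise, with a chi-square of 27.0 to 116.8 per degree over genes with at least 25 reads in the pair, so each library counted as 1. Replicates 1 and 2 follow the marks I and II in the titles, and replicate 3 is the undated library. With edgeR 4.0.16 in R 4.3.3, genes kept by filterByExpr (13704) were scaled by TMM and tested by glmQLFit (robust, legacy off) and glmQLFTest, group only, all 6 libraries, with Benjamini-Hochberg adjustment at 0.05. SE is the log2 difference over the square root of F. CPM are counts scaled to 1000000 of the TMM-adjusted library, and TPM use the union of exons. Other fits used DESeq2 1.42.0 and limma-voom (limma 3.58.1). The scripts were tested on simulated data.

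The 10 genes, 6 functional lists and 8 marker lists (neutrophil, eosinophil, macrophage and Langerhans, mast cell, endothelial, fibroblast, secretory gland, keratinocyte) were chosen with earlier results of these data known. Named were the 10 genes and the 8 genes nearest to Lpo (prior count 2). Of the functional lists, every tested gene was named in lists of up to 6. In longer ones the 3 with the smallest p and any called were named. The marker genes, and further functional genes such as Noxo1, Noxa1, Lox, Loxl1 and Loxl2, were named outside this rule.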

Additional observations from a re-analysis of the deposited data

How the results depend on the processing

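The log2 difference kept its sign under all 17 alternatives for Lpo (3.95 to 4.43), Duox1 (0.96 to 1.21), Cyba (0.91 to 1.21), Duoxa1 (0.77 to 1.09) and Cybb (0.44 to 2.47), and under the 15 that kept Nox4 (-0.56 to -0.15). For Nox1, near 0, it was kept in 14 of 16. The number of genes called, 30 as reported, was 57 with no filter on low counts, 18 with a filter of 1 CPM in 3 libraries, 18 with the older quasi-likelihood fit, 648 with DESeq2, 0 with limma-voom (1748 at an unadjusted p under 0.05), 709 with the collection as a covariate and 227 in the dated libraries only. It ran from 0 to 64 when 1 library was left out. Functional-list genes called, 0 as reported (17 at an unadjusted p under 0.05), were 5 with DESeq2, 8 with the collection as a covariate and 5 in the dated libraries only, and 0 whichever library was left out with edgeR (9 to 22 at an unadjusted p under 0.05, and 2 to 9 by DESeq2). The cause of these shifts was not tested. The replicate block gave 354 genes and 4 functional-list genes. The replicate numbers do not pair the libraries by their deviations (correlations of -0.19, 0.47 and 0.67 for numbers 1 to 3), and libraries do not all correlate best with their own number. With the longest transcript as length, Cyba (14.2 TPM), Duoxa1 (12.1) and Duox1 (11.2) changed order in ko. Their order changed in wt too, to Cyba (6.89 TPM), Duoxa1 (6.37) and Duox1 (5.39), and in ko Nox4 (0.244) lay above Duox2 (0.192). With a prior count of 0.5, 7 of the 8 genes nearest to Lpo were the same. Depth limits Mpo, Duoxa2, Duox2 and Nox4, with at most 13 reads a library, and Cybb in the dated wt libraries, with 8 and 2 reads.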
